A study of Drosophila melanogaster with 2 samples.

Results

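The genes described here encode the proteins of the cytoplasmic ribosome of Drosophila melanogaster, and the values are the positions and heights of Sry-beta ChIP-seq peaks at their promoters. Members were the protein-coding genes of Ensembl release 115 named RpL, RpS or RpLP followed by a number, without names ending in "-like". This rule found 87 of the 13968 protein-coding genes on the assembled chromosomes, Y included, 50 of the large ribosomal subunit and 37 of the small one. The genes sta and Rack1, whose products also belong to the small subunit, do not have such names and were not counted.

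The libraries came from whole embryos of both sexes aged 0 to 12 h, from a transgenic line that stably expresses Sry-beta with GFP at its C-terminus, and are biological replicates 2 and 4 of a single group. The antibody's target was Sry-β, chromatin was sonicated to 200 to 800 bp, and both replicates' peaks were derived with the same control alignment. A comment in the labels describes each library as input, but the assay and antibody recorded with them are those of a ChIP, and they were treated as such. Whether the line keeps untagged Sry-beta is not given in the labels. There was no untagged or other comparison group, so the comparisons are with other genes, without a test, and the spread is that between the 2 replicates.

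Most ribosomal proteins are made in roughly equal numbers in growing cells, and in flies the loss of 1 copy of many of these genes slows development, the Minute phenotype. Their promoters usually lack a TATA box and start transcription in a stretch of pyrimidines, the TCT initiator, in place of the standard initiator of other genes. Sry-beta is a DNA-binding protein with zinc fingers, closely related to Sry-delta.

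The TCT initiator was present in most of these promoters, and the following examples show it for 9 of the genes with the highest peaks. Each line gives 30 bases of the release 6 genome (dm6) on the gene's own strand, 5′ to 3′, with the initiator in capitals.

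RpL4 (chr3R:27922810-27922839, plus strand): atttccggcagctcTCTTTCtttcttcgtt
RpS26 (chr2L:18443209-18443238, minus strand): cgtccacactatttTCTTTCttttcgtttc
RpS27 (chr3R:25247454-25247483, minus strand): gatttaccccacttCCTTTTccgtgttagc
RpL32 (chr3R:30046144-30046173, minus strand): caccaccagcttttTCTTTTcgcttctggt
RpL7 (chr2L:10201088-10201117, plus strand): tagcacgtttccggTCTTTCtttccctttc
RpL35 (chrX:5672717-5672746, plus strand): cctctgcttcttctTCTTTCcttttctttt
RpL14 (chr3L:8600990-8601019, plus strand): gctgtcaaaaaagtTCTTTCcttctctttc
RpS4 (chr3L:13041789-13041818, plus strand): cgcccgcaaatctgCCTTTTccttttcctg
RpL27A (chr2L:4458300-4458329, minus strand): cagccaacttcgctTCTTTCtttcctacaa

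The initiator was searched on the gene's strand as CTTT between a pair of pyrimidines, each C or T, with its C before the TTT within 5 bp of an annotated transcription start site (TSS). It was found at 54 of 87 ribosomal protein genes (62.1%), at 30 of 50 large subunit genes (60.0%) and at 24 of 37 small subunit genes (64.9%). The same search found it at 297 of 13968 protein-coding genes (2.13%) and at 2.74% of the 73 genes for mitochondrial ribosomal proteins. Its C lay a median of 3.5 bp downstream of the annotated TSS, with a range of -4 to 5 bp over the 54 genes, so the result depends on the tolerance. With the C exactly at the TSS the share was 2.30%, and within 20 bp it was 93.1% of ribosomal protein genes against 7.62% of all protein-coding genes.

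A few promoters also held other short motifs within 50 bp of their highest summit, and examples of each motif are shown here. For RpL4 that summit lay 422 bp upstream of RpL4 and 43 bp from the TSS of BCAS2, its neighbour on the other strand. The lines give 30 bases on the strand named, with the motif in capitals, for the DNA replication-related element (DRE, TATCGATA, bound by Dref), Motif 1 (GGTCACAC), the word TAGCTA and the word AGAGATG, a core of the known binding sequences of Sry-beta and Sry-delta.

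RpS12 with the DRE (chr3L:13023300-13023329, plus strand): ctctgcgaaacTATCGATAtttgtaccaat
RpS25 with the DRE (chr3R:11216328-11216357, plus strand): gctcgcctgccTATCGATAgttggtggtgg
RpS29 with the DRE (chr3R:9778046-9778075, plus strand): atcgtggaaaaTATCGATActgccaccccc
RpL37A with Motif 1 (chr2L:5070979-5071008, plus strand): tatcgagcggcGGTCACACttttcgctctt
RpLP0 with Motif 1 (chr3L:22076054-22076083, plus strand): gccatcgaagcGGTCACACtgggtgccgcc
RpL4 with TAGCTA (chr3R:27922348-27922377, plus strand): gtgtggcacattTAGCTActttatagctat
RpS26 with TAGCTA (chr2L:18443455-18443484, plus strand): aggttacacattTAGCTAtatatccatatc
RpL27 with AGAGATG (chr3R:25685049-25685078, plus strand): ggggagattttAGAGATGgcaaaacgtcgt

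Sry-beta peaks were found at most ribosomal protein promoters. A promoter was counted when a peak summit, the peak's highest point, lay within 500 bp of any annotated TSS of the gene. In the authors' list of 3257 peaks thresholded for reproducibility (the IDR list), 58 of 87 ribosomal protein genes (66.7%) had such a summit. The same held for 28 of 73 genes for mitochondrial ribosomal proteins (38.4%) and for 2518 of 13968 protein-coding genes (18.0%). Not every IDR summit was found in both replicates. Within 100 bp of it, replicate 2 had a summit among 30000 peaks at 56 of the 58 ribosomal protein genes, down to rank 19625. Replicate 4 had one at 55 of them, down to rank 6015.

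Each replicate gave the same order of the gene groups. Among its 3257 highest peaks, replicate 2 had a summit at 64 ribosomal protein promoters (73.6%), at 41.1% of mitochondrial ribosomal protein promoters and at 18.5% of all protein-coding promoters. Replicate 4 had one at 52 ribosomal protein promoters (59.8%), at 35.6% of the mitochondrial ones and at 17.4% of all protein-coding ones. The mean share was 66.7% ± 9.75 for ribosomal protein genes, 38.4% ± 3.87 for mitochondrial ribosomal protein genes and 17.9% ± 0.830 for all protein-coding genes (SD, n = 2 each). The gap between ribosomal protein genes and either of the other groups was larger than these spreads.

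In the longer relaxed lists of 30000 peaks each, which hold weak peaks too, nearly every ribosomal protein promoter had a summit. The pooled relaxed list had one at 80 of 87 genes (92.0%), against 53.1% of all protein-coding genes. The relaxed list of replicate 2 had one at 82 genes (94.3%) against 54.6%, and that of replicate 4 at 80 genes against 50.4%.

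**Figure D1:**
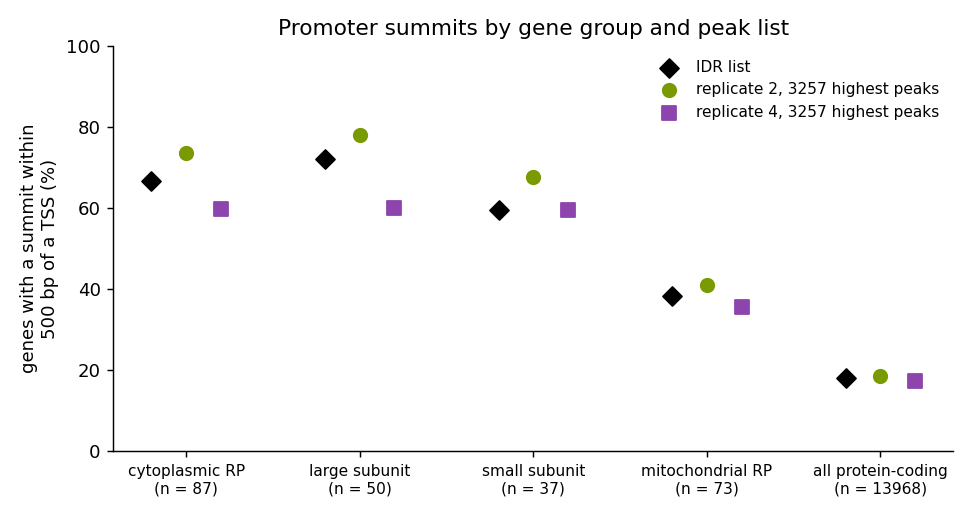
Share of genes with a Sry-beta peak summit within 500 bp of a TSS, in percent, by gene group, in the IDR list and among the 3257 highest peaks of replicates 2 and 4. Ribosomal protein genes reached 66.7%, 73.6% and 59.8% in these lists, and all protein-coding genes 18.0%, 18.5% and 17.4%.

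Large and small subunit genes were both covered. The IDR list had a summit at 36 of 50 large subunit genes (72.0%) and at 22 of 37 small subunit genes (59.5%), a difference of 12.5 percentage points. The difference was 10.4 points in replicate 2, with 39 large (78.0%) and 25 small subunit genes (67.6%). In replicate 4 it was 0.541 points, with 30 large (60.0%) and 22 small subunit genes (59.5%). The mean difference of 5.49 ± 6.99 points (SD, n = 2) was smaller than the spread between the replicates.

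The peaks at ribosomal protein promoters were mostly of middle height. Ranks count from 1 for the highest signal in a list, and the signal is the authors' own value per peak, on a scale that is not stated. In the IDR list the ranks of the 58 genes ran from 248 to 3171 with a median of 1507.5, and the 2460 other protein-coding genes with a summit had a median of 1415.5. Of the ribosomal protein genes 3 of 58 (5.17%) were among the 500 highest peaks, against 32.1% of mitochondrial ribosomal protein genes and 23.5% of the other protein-coding genes with a summit. The median rank was 1450.0 for large and 1519.5 for small subunit genes. Median signals were 307 for ribosomal protein genes, 766 for mitochondrial ribosomal protein genes and 325 for the other protein-coding genes.

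The highest signal among these genes was that of RpS28b, a small subunit protein gene (FBgn0030136, chrX:9554623-9555661, plus strand). Its peak at chrX:9553595-9554776 had a signal of 2792.8 and ranked 248 in the IDR list, 412 in replicate 2 and 203 in replicate 4. The summit lay 430 bp upstream of RpS28b and 443 bp from a TSS of its divergent neighbour l(1)G0320. A further summit lay 14 bp upstream of RpS28b itself, with a lower signal of 431.3.

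RpL4, whose protein lines part of the ribosomal exit tunnel (FBgn0003279, chr3R:27922821-27924888, plus strand), came next with a signal of 1810.2 and rank 347. That summit, in the peak at chr3R:27922058-27922566, was 422 bp upstream of RpL4 and 43 bp from the TSS of BCAS2, a splicing factor gene on the other strand. The peak ranked 550 in replicate 2 and 309 in replicate 4. A separate summit 84 bp upstream of RpL4 had a signal of 1683.9 and rank 370 in the IDR list, so each gene of this pair had a high peak near its own start.

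RpS26, whose protein sits at the mRNA exit channel of the small subunit (FBgn0261597, chr2L:18441335-18443277, minus strand), had a signal of 1650.7 and rank 376. Its summit lay 239 bp upstream in both replicates, at rank 446 in replicate 2 and 349 in replicate 4, in the IDR peak at chr2L:18443097-18443799. No divergent gene started within 1000 bp. When each gene is taken by its highest summit alone, RpS28b, RpL4 and RpS26 are among the 6 of 58 genes whose summit lay more than 200 bp from the TSS.

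Below these the signals were much closer together. RpS27 ranked 628 with a signal of 772.4, ranks of 452 and 823 in replicates 2 and 4, and a summit 19 bp downstream of its TSS. Nup37, a nuclear pore gene, starts 144 bp from it on the other strand. RpL32, widely used as a reference gene in fly expression work, ranked 695, with ranks of 545 and 660 and its summit 110 bp upstream, and the neighbour CG7943 started 309 bp away. RpS20 ranked 745, with ranks of 855 and 753 and a summit 181 bp upstream of RpS20 and 152 bp from the TSS of CG17271.

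RpL7 ranked 774 and was ranked 485 in replicate 2 and 1490 in replicate 4, with a summit 44 bp downstream of its TSS and Ripalpha starting 30 bp away. RpL14 ranked 893, with ranks of 595 and 1382 in replicates 2 and 4, and shared its upstream region with Nelf-E, a subunit gene of the pausing factor NELF, 127 bp away. RpS4 ranked 927, with ranks of 568 and 1748, and its summit was 1 bp from the TSS.

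Another pair of the 12 highest had summits far from the start and uneven replicates. RpL35, whose protein lies at the mouth of the exit tunnel, ranked 781 with a summit 307 bp upstream, which was 282 bp from the TSS of Rab18, a small GTPase gene. The 307 bp is from the nearest of the 3 TSSs of RpL35. Its initiator shown above lies at another TSS, 640 bp from the summit. In replicate 4 the matching summit ranked 552, and in replicate 2 it ranked 14706. RpL27A ranked 948 with a summit 327 bp upstream, which had a counterpart within 100 bp in replicate 4 at rank 925 and none in replicate 2, where the highest promoter summit lay 489 bp upstream at rank 781. RpS23 at rank 1678, with a summit 450 bp upstream, was the remaining gene beyond 200 bp.

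Most summits sat on or just before the start of transcription. The highest IDR summit lay at a median of -21.0 bp from the nearest TSS of the ribosomal protein gene, at -162.0 bp for the mitochondrial ribosomal protein genes and at -122.5 bp for the other protein-coding genes, with negative values upstream. It was within 50 bp of the TSS at 40 of 58 ribosomal protein genes (69.0%), at 7.14% of the mitochondrial ones and at 18.7% of the other protein-coding genes with a summit. Within 100 bp lay 48 of the 58 (82.8%) and 39.3% of the other protein-coding genes. The summit was upstream of the TSS at 44 of 58 ribosomal protein genes (75.9%) and at 90.3% of the other protein-coding genes. These values count genes, and a summit shared by several genes is counted for each. The 58 ribosomal protein genes had 58 distinct highest summits. The other IDR promoter summits numbered 1930, fewer than the 2460 other protein-coding genes with a summit. The part of shared summits in these differences was not tested.

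The replicates gave the closeness to the TSS separately, again counted per gene. In replicate 2 the share within 50 bp was 76.6% for ribosomal protein genes and 27.4% for the other protein-coding genes, and in replicate 4 it was 57.7% and 13.5%. Median positions were -20.5 bp in replicate 2 and -40.0 bp in replicate 4 for ribosomal protein genes, and -86.0 and -141.0 bp for the other protein-coding genes. In the IDR list the medians were -21.0 bp for large and -20.5 bp for small subunit genes.

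The summit nearest to its TSS was that of RpS4. RpL5, whose protein binds 5S rRNA, had its summit 2 bp upstream, and RpS21 had one 2 bp downstream. RpL8, RpL37A and RpS7 had theirs 4 bp upstream, and RpS29 4 bp downstream. RpL5 also had the lowest peak of the 58, with a signal of 172.6 and rank 3171, so a summit near the TSS did not go with a high signal there. RpL5 has 3 TSSs, and the summit matching its IDR summit ranked 19625 in replicate 2 and 5849 in replicate 4. The highest promoter summit of RpL5 in replicate 2 was a different one, at rank 2168 and 59 bp upstream of the nearest TSS.

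By annotation, 36 of the 58 highest summits lay outside the gene, 21 in a 5′ UTR and 1, that of RpL3, in a coding exon. RpL3 encodes a protein near the peptidyl transferase centre. Where a gene has several TSSs, a summit upstream of the nearest one can lie in its 5′ UTR, as for RpL17 and RpS16. The matching shares for the other protein-coding genes were not computed.

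**Figure D2:**
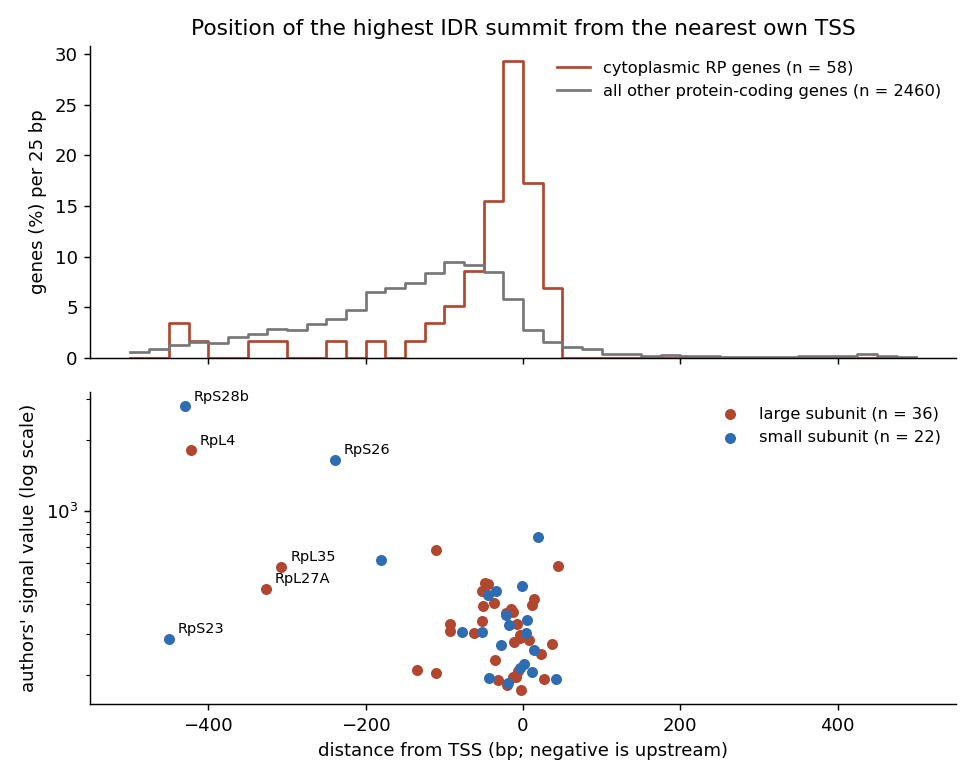
Position of the highest IDR summit relative to the nearest TSS, in bp with negative values upstream: above, the percentage of genes per 25 bp for ribosomal protein genes (n = 58) and the other protein-coding genes with a summit (n = 2460); below, the signal of each ribosomal protein gene's summit on a log axis. Summits of ribosomal protein genes gather at the TSS, 69.0% within 50 bp against 18.7%, while those of other genes spread further upstream. A summit shared by several genes is counted for each of them.

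The replicates ranked these promoters differently. Of the 78 ribosomal protein genes with a promoter summit in both relaxed lists, 62 (79.5%) ranked higher in replicate 2, against 54.7% of 53 mitochondrial ribosomal protein genes and 53.5% of 6041 other protein-coding genes. Large subunit genes did so at 40 of 47 (85.1%) and small subunit genes at 22 of 31 (71.0%). Among genes with an IDR summit it was 46 of 58 (79.3%) for ribosomal protein genes and 46.8% of 2440 for the other protein-coding genes. The median rank of the summits within 100 bp of the IDR summit was 1042 in replicate 2 (n = 56) and 2068 in replicate 4 (n = 55). With 1 library per replicate and no read depth, the part of depth or library quality in this was not tested.

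Within the 3257 highest peaks of each replicate, 49 ribosomal protein genes had a summit in both, 15 in replicate 2 alone, 3 in replicate 4 alone and 20 in neither. These are 56.3%, 17.2%, 3.45% and 23.0% of the 87 genes, against 13.2% in both, 5.34% in replicate 2 alone, 4.17% in replicate 4 alone and 77.3% in neither for all protein-coding genes. Of the 15 genes, 12 were of the large subunit and 3 of the small one. RpL11, which binds 5S rRNA together with RpL5, ranked 829 in replicate 2 and 3469 in replicate 4. RpL27 ranked 1054 and 3726, RpL22 1186 and 4231, and RpL17 1315 and 6015 in replicates 2 and 4. RpL35A ranked 1490 and 4186, and RpL18 ranked 1621 and 3670. All 6 genes had a summit in both relaxed lists, the one in replicate 4 past rank 3257. Each rank is that of the replicate's own highest promoter summit, and these summits can differ in place. For RpL35A it lay 30 bp upstream in replicate 2 and 376 bp upstream in replicate 4. For RpL17 it lay 82 bp upstream in replicate 2 and 62 bp downstream in replicate 4.

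The 3 genes found in replicate 4 alone were RpL35, RpLP2 and RpLP1. RpLP1 and RpLP2 encode acidic proteins of the ribosomal stalk, which recruits translation factors. RpLP2 ranked 6060 in replicate 2 and 2729 in replicate 4, with summits 17 and 147 bp upstream. RpLP1 ranked 5167 and 3083, with summits 274 and 10 bp upstream. RpLP0, the base of the stalk, ranked 876 and 1504, higher in replicate 2.

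**Figure D3:**
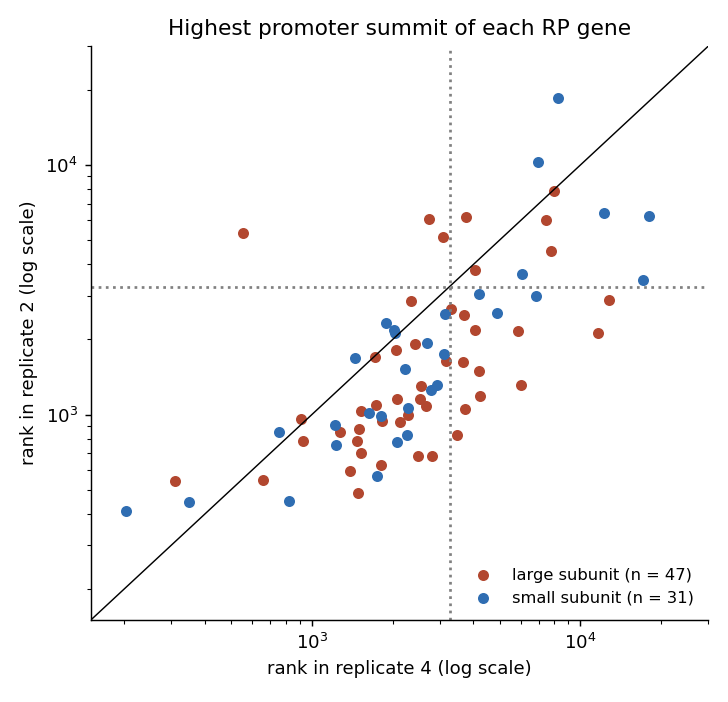
Rank of the highest promoter summit of each ribosomal protein gene in replicate 2 and replicate 4, on log axes with rank 1 as the highest signal, for large and small subunit genes. Of the 78 genes with a summit in both lists, 62 rank higher in replicate 2.

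The IDR list had no summit at 29 genes, 14 of the large and 15 of the small subunit. A weaker summit in the pooled relaxed list was present at 22 of these 29. Of all protein-coding genes, 11450 had no IDR summit, and 4895 of them had a pooled relaxed one. At 19 of the 22 ribosomal protein genes that summit was within 100 bp of the TSS, and 10 of the 22 ranked no lower than 5000. The matching shares over all protein-coding genes were not computed for position and rank. RpL7A was placed among the 3257 highest peaks of both replicates, at 1817 in replicate 2 and 2066 in replicate 4, but the summits lay 24 bp downstream and 352 bp upstream of the TSS. Its pooled summit ranked 9820, and this gene was singled out after its values were seen.

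The genes without any peak were copies of other ribosomal protein genes. Of the 87 genes, 3 (3.45%), RpL10Aa and RpL37-2 among them, had no summit in any of the 4 lists, against 37.5% of all protein-coding genes. All 3 belong to pairs whose other copy had an IDR summit, such as RpL10Ab at rank 2470 and RpL37-1 at 2682.

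Of 9 such pairs, 7 had an IDR summit at 1 copy, 1 pair at both and 1 pair at neither. RpS10b ranked 1417, while RpS10a had no summit in replicate 2 and one at rank 10663 in replicate 4, 412 bp upstream. RpS15Aa ranked 2881, while RpS15Ab had one in replicate 2 alone, at rank 12059. That summit lay 70 bp upstream of RpS15Ab, and Lsm10 starts 36 bp from RpS15Ab on the other strand. RpS19a ranked 1809, while RpS19b, known in flies as a germline copy, had a summit at rank 5737 of replicate 2 and none in replicate 4. That summit lay 358 bp upstream of RpS19b, near the start of CG5854, which lies 382 bp from RpS19b on the other strand. RpS28b ranked 248, and RpS28a had a pooled summit at rank 5616, 288 bp downstream of its TSS.

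The exceptions were RpL34 and RpS14. RpL34a and RpL34b both had a summit 93 bp upstream of the TSS, at ranks 1504 and 1388. RpS14a and RpS14b had none in the IDR list, and their pooled summits ranked 10792 and 4614. The former lay 400 bp upstream of RpS14a, near the start of Dhdds 391 bp away on the other strand, and the latter 33 bp upstream of RpS14b. Genes in pairs had an IDR summit at 9 of 18, and the genes outside pairs at 49 of 69 (71.0%). In the pooled relaxed list these counts were 12 of 18 (66.7%) and 68 of 69 (98.6%).

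**Figure D4:**
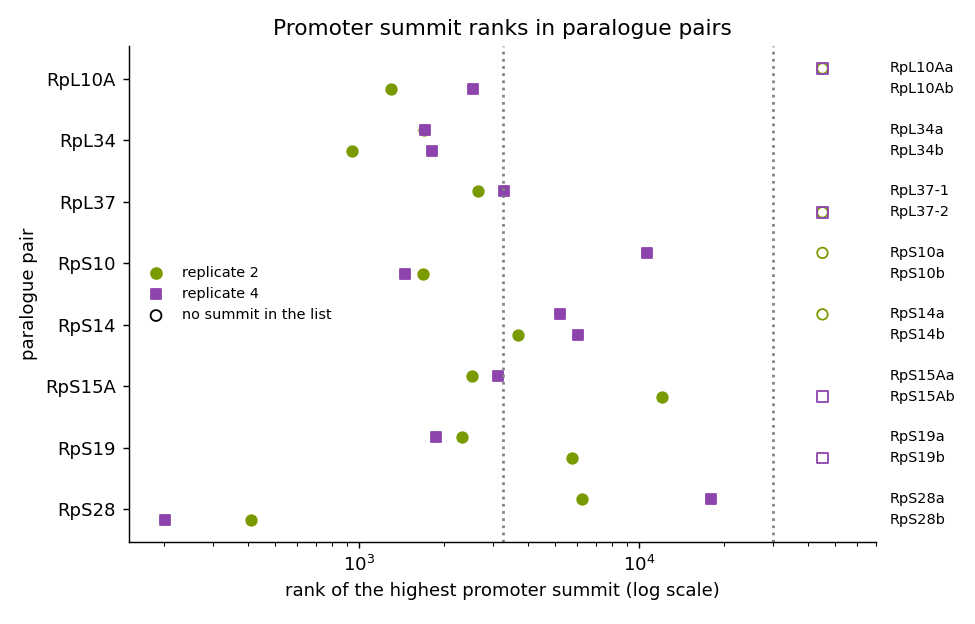
Rank of the highest promoter summit of each copy in 8 of the pairs of ribosomal protein genes, in replicates 2 and 4, on a log axis; open symbols at the right stand for no summit in that list. Dotted lines mark ranks 3257 and 30000, and RpL10Aa and RpL37-2 have open symbols only.

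Many ribosomal protein genes start close to a gene on the other strand. A divergent partner, a protein-coding gene starting within 1000 bp upstream on the opposite strand, was annotated for 52 of 87 ribosomal protein genes (59.8%), for 79.5% of mitochondrial ribosomal protein genes and for 36.2% of all protein-coding genes. No partner was itself a ribosomal protein gene of the cytoplasmic ribosome.

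Ribosomal protein promoters had peaks with a partner and without one. An IDR summit was present at 37 of 52 genes with a partner (71.2%) and at 21 of 35 without one (60.0%). Mitochondrial ribosomal protein genes had 46.6% with a partner and 6.67% without one, and all protein-coding genes 34.4% and 8.77%. In replicate 2 the shares of ribosomal protein genes were 76.9% with a partner and 68.6% without one, and in replicate 4 they were 71.2% and 42.9%. Among large subunit genes the counts were 23 of 31 with a partner and 13 of 19 without one, and among small subunit genes 14 of 21 and 8 of 16.

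Peaks were present at near and at far partners. A summit was present at 8 of 13 ribosomal protein genes with a partner within 200 bp, at 15 of 20 with one at 201 to 500 bp and at 14 of 19 with one at 501 to 1000 bp. For all protein-coding genes the shares in these distances were 32.3%, 42.8% and 21.2%.

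Of the 37 ribosomal protein genes with a partner and a summit, 35 had a summit closer to their own TSS than to that of any other gene. By the same 500 bp rule, the partner had a promoter summit at 27 of the 37. This can be the ribosomal protein gene's own summit, since a summit may lie within 500 bp of both genes. How often it was a separate summit was not computed. The shares over all protein-coding genes that match the 35 and the 27 of 37 were not computed either. RpL13 started 84 bp from Dref, which encodes the protein that binds the DRE, and its summit lay 7 bp upstream of RpL13. RpL28 started 381 bp from eIF1, a translation initiation factor gene, with its summit 37 bp upstream of RpL28. These last 2 pairs were chosen after their values were seen.

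**Figure D5:**
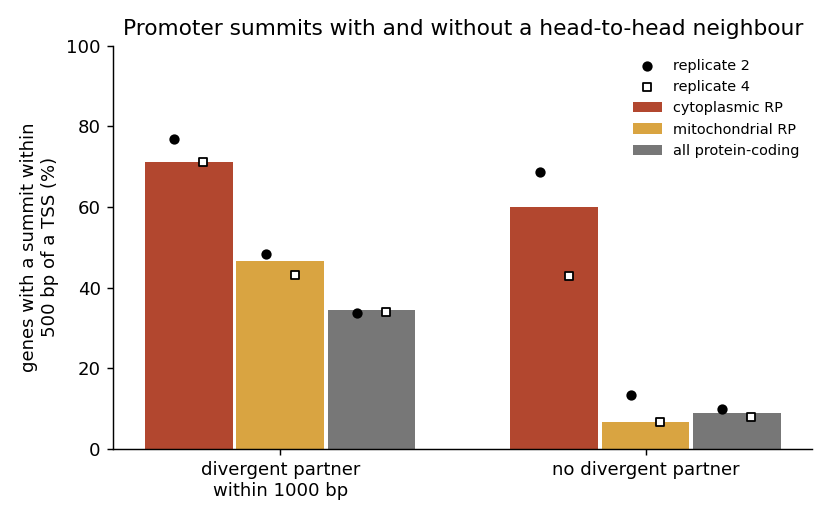
Percentage of genes with a promoter summit, with and without a divergent partner, by gene group (bars, IDR list; points, the 3257 highest peaks of replicates 2 and 4). Ribosomal protein genes reach 71.2% with a partner and 60.0% without one, and all protein-coding genes 34.4% and 8.77%.

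The motifs shown above were present at a minority of the summits. Within 50 bp of the highest IDR summit, searched on both strands, the DRE was found at 8 of 58 ribosomal protein promoters (13.8%) and at 5.03% of 1930 other IDR promoter summits. Among them were RpL19, RpL27, RpL37-1, RpL41, RpS12, RpS25 and RpS29. In RpS12 the centre of the DRE was 5 bp from the summit, in RpS25 10 bp and in RpS29 14 bp. In RpL27 it was 25 bp and in RpL37-1 40 bp from the summit.

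Motif 1 was found at 4 of 58 (6.90%) and at 3.01% of the other summits, in RpL30, RpL37A, RpLP0 and RpS15. TAGCTA was found at 4 of 58 (6.90%) and at 9.17% of the other summits, among them RpL4, RpS12 and RpS26. Its centre was 22 bp from the summit in RpS12, 37 bp in RpL4 and 47 bp in RpS26. The RpL4 summit searched was the one 43 bp from the TSS of BCAS2, not the one 84 bp upstream of RpL4. AGAGATG was found at 2 of 58 (3.45%) and at 3.26% of the other summits, in RpL27 and RpL31, and in RpL27 its centre was 1 bp from the summit. The windows held 44.2% G and C at ribosomal protein promoters and 36.2% at the other summits, and the part of base composition in these counts was not tested.

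The presence of an initiator and of a peak overlapped only in part. An IDR summit was present at 39 of 54 ribosomal protein genes with the TCT initiator (72.2%) and at 19 of 33 without one (57.6%). In replicate 2 these shares were 75.9% and 69.7%, and in replicate 4 68.5% and 45.5%. Of the 243 other protein-coding genes with the initiator, 56 (23.0%) had an IDR summit, against 18.0% of all protein-coding genes.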

How the data were processed

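Sry-beta ChIP-seq of 2 biological replicates was deposited as 4 peak lists on dm6. The deposited readme files state that the relaxed lists were derived from 1 replicate's alignment, or from both for the pooled one, with a control alignment, and the IDR list from these 3. Which aligner, caller and threshold the authors used is not given in the sources used. The deposited signal per peak has no stated scale and was used for ranks and comparisons within a list. The deposited −log10 q column was not used. Depth is unknown, since the files hold no read counts, so no interval covers sequencing error.

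Gene models were those of Ensembl release 115, and bases were read from RefSeq's release 6 genome, whose arms hold every peak. Summits past a peak's end were moved to its last base (2 IDR peaks). Each replicate's 3257 highest peaks, as many as the IDR list holds, gave the replicate values. Counts and figures used pandas 2.3.3, numpy 2.4.6 and matplotlib 3.10.9 under Python 3.11.15, after recovering 58 of 58 planted summits in simulated data. No p-value was computed: there is 1 group.

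Members and lists were chosen with earlier results of these data known. Named genes were the 12 with the highest IDR signal, up to 6 nearest to the TSS (7 are given because 4 tie), up to 6 found in 1 replicate's highest peaks alone, those without any summit, discordant paralogue pairs and the neighbours of these; a few genes that this rule names are not reported here. Alternatives were other windows, canonical TSSs, the pooled list, the 1628 highest IDR peaks, other motif windows and single replicates.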

Additional observations from a re-analysis of the deposited data

How the results depend on the processing

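Among the 1628 highest IDR peaks, summits were present at 34 ribosomal protein genes, 21 of the large and 13 of the small subunit, 82.4% lay upstream, the median position was -45.0 bp, and shares were 42.3% with a divergent partner and 34.3% without one. In the pooled relaxed list the subunit difference was 4.81 percentage points, 67.5% of summits lay upstream, and shares were 96.2% with a partner and 85.7% without one. The nearest summit was closer to another gene's TSS at 2 genes, at 1 with a 250 bp window, at 4 with 1000 bp and at 1 with canonical TSSs. With 25 bp on each side the share with TAGCTA was 3.45% and with the DRE 8.62%, and with 100 bp the DRE share was 27.6%. The initiator share was 2.30% with no tolerance and 93.1% within 20 bp. Using 1 replicate at a time gave 52 to 64 genes with a summit, 30 to 39 large and 22 to 25 small, a difference of 0.541 to 10.4 points, 71.9% to 80.8% upstream, a median of -40.0 to -20.5 bp, 57.7% to 76.6% within 50 bp, 2 to 5 genes closer to another TSS, 71.2% to 76.9% with a partner, 42.9% to 68.6% without one, 4.69% to 7.69% with TAGCTA, 14.1% to 17.3% with the DRE and 6.25% to 9.62% with Motif 1. The count of 58 genes became 50, 55 and 60 with windows of 100, 250 and 1000 bp. With summits closer to the gene's own TSS than to any other alone, 55 genes had one and the subunit difference was 15.9 points, the highest of the settings run. This setting, the 100 bp window and the shares within 50 bp and ranked higher in replicate 2 were added after seeing the data. With 2 libraries, no read depth and signals of unstated scale, weak peaks cannot be told from background, and an absent summit says only that the list holds none there.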
